A study of Mus musculus with 11 samples.

Results

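The type I interferon response genes described here were 38 genes listed by symbol, and the rule kept those whose symbol stood in the deposited gene table for NZB/W kidneys. A row was found for 33 of the 38, out of 16475 genes with values. All 33 were above the authors' baseline in both strains and were among the 14419 genes tested. Ifit3, Isg15, Oas1a, Ddx58 and Trim30a had no row under the listed symbol and were not analysed here as listed genes. The samples were entire kidneys from 2 lupus-prone F1 hybrids, taken before nephritis and proteinuria and profiled on Affymetrix arrays. NZB/W mice gave 7 kidneys at 6 weeks of age and NZW/BXSB mice gave 4 at 8 weeks, with no treatment named. The study describes the NZB/W mice as female, the NZW/BXSB mice as male, and all mice as perfused with saline before harvest, while the labels name neither sex nor perfusion. Strain, age, sex and any difference in how the strains' arrays were handled cannot be told apart here. Tubule markers were high in every kidney, where 13 tubule and glomerulus markers averaged 11.01 to 11.22 log2 units (NZB/W) and 10.82 to 10.91 (NZW/BXSB).

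Type I interferons are secreted proteins, chiefly many interferon alphas and interferon beta, made by cells that sense foreign or misplaced nucleic acid. They bind the receptor chains IFNAR1 and IFNAR2, whose kinases phosphorylate the transcription factor STAT2. STAT2 joins IRF9 in a complex that binds a short DNA motif, the interferon-stimulated response element, before a broad set of antiviral genes. In systemic lupus a raised level of these transcripts in blood and tissue is a well known feature, and interferon speeds up disease in several mouse models.

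Levels are RMA log2 values after quantile normalization over the 11 arrays, called the common scale, since the deposited values were offset between the strains. As deposited, array medians were 7.36 to 7.40 for NZB/W and 8.05 to 8.14 for NZW/BXSB, a shift of -0.70 log2 units. The methods describe arrays normalized and corrected for batch jointly, so it is not known why the deposited values differ or which scale is nearer to the levels in the tissue, and the calls differ between the scales. Every strain difference below is NZB/W minus NZW/BXSB on the common scale, with limma's Benjamini-Hochberg adjusted p over all tested genes and a threshold of 0.05. As whole kidneys were measured, fewer cells of a type and less RNA per cell cannot be told apart.

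The response element was looked for in the promoters of these genes. RefSeq promoters of the GRCm38.p6 build, 250 bases before to 50 after the gene start, were at hand for 23 of the 33. The core of the element, taken as GAAA, any 2 bases and a further GAAA on either strand, stood in 7 of the 23 (30.4%), against 3.99% of the 27025 genes with a promoter and 3.48% of the 11279 tested genes with one. The same core with CT directly after it, which overlaps the first motif, stood in 8.7% of the 23 and 0.303% of all genes. The spaced palindrome TTCNNNGAA, the core read by STAT dimers, stood in 26.1% and 9.55%. The 250 bases upstream of 4 genes are shown 5′ to 3′ on the gene's strand, with the core or its reverse complement in capitals. Ifit1 and Rsad2 hold a match and were called higher in NZB/W. Oas3 holds a match and rose least in the kidney that stood apart. Xaf1 had the largest strain difference and holds no match. Ifit1 lies at chr19:34640639-34640888 on the plus strand, with 75 bases between its last match and the start. Rsad2 lies at chr12:26456453-26456702, Oas3 at chr5:120777660-120777909, both on the minus strand, and Xaf1 at chr11:72301379-72301628 on the plus strand.
Ifit1: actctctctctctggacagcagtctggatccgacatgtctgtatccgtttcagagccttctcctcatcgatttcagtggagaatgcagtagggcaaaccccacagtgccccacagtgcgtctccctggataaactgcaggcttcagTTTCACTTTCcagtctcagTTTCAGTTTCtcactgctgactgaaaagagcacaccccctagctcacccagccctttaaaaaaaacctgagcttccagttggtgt
Rsad2: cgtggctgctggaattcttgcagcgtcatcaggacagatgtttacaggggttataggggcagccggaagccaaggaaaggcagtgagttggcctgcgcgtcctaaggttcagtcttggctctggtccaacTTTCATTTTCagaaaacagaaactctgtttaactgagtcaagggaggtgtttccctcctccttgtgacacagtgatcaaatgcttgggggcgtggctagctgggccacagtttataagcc
Oas3: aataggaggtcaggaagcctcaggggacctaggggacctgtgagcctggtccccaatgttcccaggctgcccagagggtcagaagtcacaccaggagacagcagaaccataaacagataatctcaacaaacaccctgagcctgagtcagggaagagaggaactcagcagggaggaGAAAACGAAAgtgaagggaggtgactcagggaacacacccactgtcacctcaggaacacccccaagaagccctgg
Xaf1: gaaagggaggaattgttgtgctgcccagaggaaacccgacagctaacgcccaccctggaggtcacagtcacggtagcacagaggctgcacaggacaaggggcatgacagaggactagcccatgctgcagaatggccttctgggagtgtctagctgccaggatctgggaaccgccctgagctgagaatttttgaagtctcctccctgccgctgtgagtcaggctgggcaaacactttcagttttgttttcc
A match is a string of letters and not a measured binding site, and no match says only that these letters were not in the window.

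Interferon response genes were higher on balance in NZB/W kidneys on the common scale. Of the 33, 17 were called higher in NZB/W (51.5%, against 33.3% of all tested genes) and 2 lower (6.06%, against 36.1%). The median difference of the 33 was 0.49 log2 units, beside -0.01 over all tested genes. As deposited, where most genes lay lower in NZB/W, 1 of the 33 was called higher (5.56% of all genes) and 8 lower (84.0%), and their median was -0.18 beside the shift of -0.70. Under a stricter rule, a fold of 1.4 and above or 0.7 and below with a limma adjusted p of at most 0.001, 6 were higher (14.3% of all genes) and 0 lower (13.6%). In 16 genes every NZB/W kidney lay above every NZW/BXSB kidney (48.5%, against 25.9% of all genes). In 0 every one lay below (28.8% of all genes), and in 17 the strains overlapped. NZB/W replicate 5 was above every NZW/BXSB kidney in all 33, so none could lie below with it included. Without it, 16 lay above in every kidney (26.7% of all genes) and 4 below (29.6%). The mean of the 33 was 7.30, 7.27, 7.32 and 7.40 in the NZW/BXSB kidneys and ran from 7.46 through a median of 7.64 to 8.87 in NZB/W. The 8.87 belonged to NZB/W replicate 5, and the next highest kidney, replicate 3, had 7.78.

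Replicate 5 stood apart from the 6 other NZB/W kidneys in the same genes. It was the highest NZB/W kidney in 33 of 33 (100%), whereas it was the highest in 12.3% of all tested genes. Without it, 21 genes were called higher (63.6%, against 33.0% of all genes) and 5 lower (15.2%, against 35.8%). All 17 genes called higher and both called lower kept their call, Oasl2, Parp14, Parp9 and Stat2 were added to those higher, and Eif2ak2, Trim25 and Zbp1 to those lower. The median difference without it was 0.35 log2 units. Being the highest NZB/W kidney in all 33 genes, replicate 5 necessarily raised the NZB/W mean in each.

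**Figure D1:**
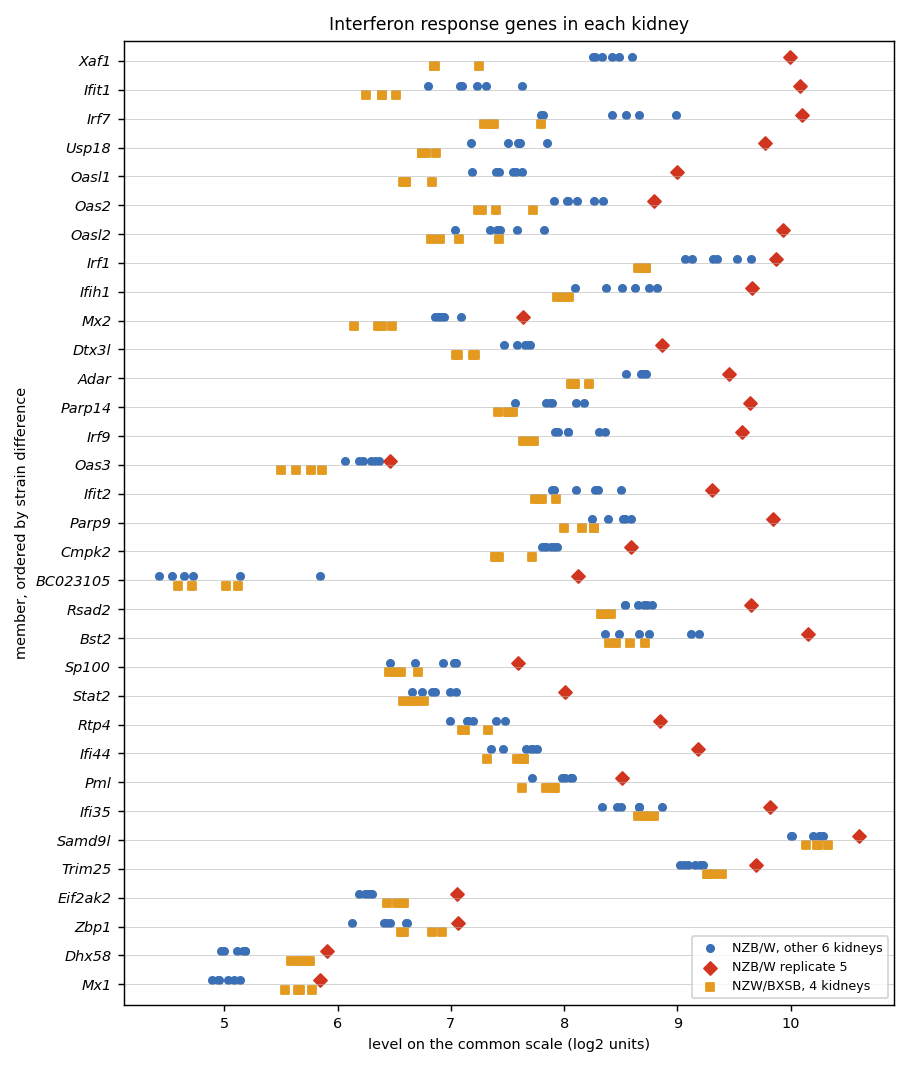
Level of each of the 33 interferon response genes (log2 units, common scale) in the 6 other NZB/W kidneys, in NZB/W replicate 5 and in the 4 NZW/BXSB kidneys. Each point is 1 kidney; replicate 5 is the highest NZB/W kidney in all 33 rows, and every NZB/W kidney lies above every NZW/BXSB kidney in 16.

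The transcription factors of the pathway were measured as 4 genes, of which 3 were called higher in NZB/W on the common scale and 0 as deposited. For this and the following groups, the shares over all tested genes were 33.3% higher and 36.1% lower on the common scale. As deposited they were 5.56% and 84.0%. Irf7, which amplifies interferon alpha production and is itself interferon-induced, ran from 7.80 through a median of 8.54 to 10.10 in NZB/W, and was 7.29, 7.38, 7.35 and 7.80 in NZW/BXSB. No NZB/W kidney fell below the NZW/BXSB kidneys, but NZB/W replicates 4 and 6 (7.82 and 7.80) lay next to NZW/BXSB replicate 4. The difference was 2.24-fold (1.16 ± 0.34 log2 units, SE, adjusted p = 0.00764), and 1.89-fold without replicate 5. Irf1, a factor induced by both interferon types and by inflammatory signals, ran from 9.07 through 9.35 to 9.87 in NZB/W and was 8.68, 8.65, 8.72 and 8.72 in NZW/BXSB. The strains were well separated, by 1.65-fold (0.72 ± 0.13, adjusted p = 0.000189), and replicate 5 added little, as the fold was 1.57 without it. Irf9, the DNA-binding partner of STAT2, ran from 7.92 through 8.04 to 9.57 in NZB/W against 7.64, 7.73, 7.68 and 7.65. The NZB/W kidneys were all higher, but the difference of 1.55-fold (0.64 ± 0.25) was near the threshold at an adjusted p of 0.0348, and was lost without NZB/W replicate 1 or any 1 NZW/BXSB kidney. It was 1.34-fold without replicate 5 (adjusted p = 0.000848). Stat2 was 7.02 ± 0.46 (SD, n = 7 NZB/W) against 6.67 ± 0.08 (n = 4 NZW/BXSB), which did not pass the test (adjusted p = 0.128).

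Of the 4 genes whose proteins sense foreign nucleic acid, 1 was called higher and 1 lower on the common scale. As deposited none was called higher (5.56% of all genes) and 3 lower (84.0% of all genes). The deposited differences were -1.02 for Dhx58, -0.87 for Zbp1 and -0.82 for Eif2ak2, beside the shift of -0.70 between the strains. Ifih1, which encodes the long double-stranded RNA sensor MDA5, ran from 8.10 through 8.63 to 9.66 in NZB/W and was 7.99, 8.00, 8.05 and 7.94 in NZW/BXSB. Every NZB/W kidney was above every NZW/BXSB kidney, replicate 6 only narrowly, and the difference was 1.62-fold (0.70 ± 0.21, adjusted p = 0.00957) or 1.45-fold without replicate 5. Dhx58, the LGP2 gene of the same helicase family, went the other way, with NZB/W at 5.22 ± 0.31 and NZW/BXSB at 5.68 ± 0.07 (adjusted p = 0.00895). Its NZB/W mean lay below the level that 95% of genes not above baseline stayed under (5.42 in NZB/W), so it was at least 1.20-fold lower there. The protein kinase R gene Eif2ak2, which halts translation on double-stranded RNA, was 6.38 ± 0.30 against 6.53 ± 0.07 and was not called on the common scale (adjusted p = 0.325). Zbp1, a sensor of Z-form nucleic acid that can start cell death, was 6.53 ± 0.29 against 6.72 ± 0.18 and was not called either (adjusted p = 0.214). Without replicate 5 both were called lower in NZB/W, Eif2ak2 by 1.20-fold (adjusted p = 0.00042) and Zbp1 by 1.22-fold (adjusted p = 0.0231). Replicate 5 itself was above every NZW/BXSB kidney in all 4 sensor genes.

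The 2 measured genes of the IFIT family, whose proteins bind foreign RNA and block its translation, were both called higher, near the threshold. Ifit1 ran from 6.79 through 7.23 to 10.08 in NZB/W and was 6.39, 6.40, 6.25 and 6.52 in NZW/BXSB. The strains did not overlap, and the gap between replicate 5 and the next NZB/W kidney, 2.46 log2 units, was the largest of the 33 genes. The difference was 2.32-fold with a wide error (1.21 ± 0.47, adjusted p = 0.0351), and 1.74-fold with a much narrower one without replicate 5 (adjusted p = 9.8e-05). Ifit2 ran from 7.89 through 8.27 to 9.31 in NZB/W against 7.77, 7.81, 7.93 and 7.74. NZB/W replicates 1 and 6 lay within the NZW/BXSB range, and the difference was 1.43-fold (0.51 ± 0.21, adjusted p = 0.0418). Both calls were lost without NZB/W replicate 3 or any 1 NZW/BXSB kidney, and that of Ifit2 also without NZB/W replicate 2 or 4. As deposited neither was called and the difference of Ifit2 was -0.18.

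In the OAS family, synthetases that make the second messenger of RNase L and their OAS-like relatives, 3 of 4 measured genes were called higher on the common scale and 0 as deposited. Oas2 ran from 7.91 through 8.11 to 8.80 in NZB/W and was 7.24, 7.28, 7.39 and 7.72 in NZW/BXSB. Oas3 ran from 6.06 through 6.29 to 6.46 in NZB/W and was 5.86, 5.63, 5.50 and 5.76 in NZW/BXSB. Both were separated in every kidney, by 1.74-fold for Oas2 (0.80 ± 0.15, adjusted p = 0.000253) and 1.50-fold for Oas3 (0.59 ± 0.08, adjusted p = 2.52e-05). Oas3 was the only one of the 33 in which replicate 5 lay within the central 95% of the tested genes for its distance from the other NZB/W kidneys. Oasl1, which in mice restrains translation of Irf7, ran from 7.19 through 7.55 to 8.999 in NZB/W against 6.58, 6.60, 6.60 and 6.83. It was 2.04-fold higher (1.03 ± 0.26, adjusted p = 0.00285), or 1.75-fold without replicate 5. Oasl2 ran from 7.04 through 7.43 to 9.93 in NZB/W against 7.07, 6.90, 6.83 and 7.42. Its strains overlapped and the call depended on replicate 5, at an adjusted p of 0.130 with it and 0.029 without it.

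The ISG15 system attaches and removes the small ubiquitin-like protein ISG15, and Usp18 encodes the protease that removes it and also dampens the interferon receptor. Usp18 ran from 7.18 through 7.60 to 9.77 in NZB/W and was 6.75, 6.78, 6.75 and 6.87 in NZW/BXSB. All NZB/W kidneys lay clear of the other strain, by 2.13-fold (1.09 ± 0.36, adjusted p = 0.0167) or 1.71-fold without replicate 5 (adjusted p = 1.91e-05). Trim25, a ubiquitin ligase that activates the RNA sensor RIG-I, was 9.21 ± 0.23 against 9.31 ± 0.06 and was not called on the common scale (adjusted p = 0.409). As deposited it was lower (-0.82), as were 84.0% of all genes. On the common scale without replicate 5 it was called lower, by 1.13-fold (adjusted p = 0.0122).

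Parp9 and Dtx3l encode partners in one ADP-ribosyl transferase and ubiquitin ligase complex, and Parp14 a related transferase. Of the 3, Dtx3l was called higher on the common scale, and as deposited none was. Dtx3l ran from 7.47 through 7.69 to 8.86 in NZB/W and was 7.19, 7.21, 7.06 and 7.04 in NZW/BXSB. The 6 other NZB/W kidneys were tightly grouped below replicate 5 and above NZW/BXSB, and the difference was 1.60-fold (0.68 ± 0.20, adjusted p = 0.00901). Parp14 ran from 7.57 through 7.90 to 9.64 in NZB/W and was 7.41, 7.51, 7.51 and 7.55 in NZW/BXSB. Parp9 was 8.66 ± 0.53 against 8.17 ± 0.13. Neither passed with replicate 5 (adjusted p = 0.0559 for Parp14 and 0.0728 for Parp9), and both were called higher without it, by 1.34-fold and 1.23-fold.

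Of the 3 genes of nuclear bodies and RNA editing, 2 were called higher on the common scale and 0 as deposited. Adar, whose interferon-induced form edits adenosine to inosine in double-stranded RNA, ran from 8.55 through 8.70 to 9.46 in NZB/W and was 8.09, 8.06, 8.09 and 8.22 in NZW/BXSB. This was a separation of every kidney, by 1.59-fold (0.67 ± 0.13, adjusted p = 0.000535). Sp100, a nuclear body protein gene, was 6.97 ± 0.35 against 6.56 ± 0.11, 1.33-fold higher with overlapping kidneys (adjusted p = 0.0317). The Sp100 call was lost without NZB/W replicate 4 or without NZW/BXSB replicate 2, 3 or 4. Pml, which scaffolds the same bodies, was 8.06 ± 0.23 against 7.82 ± 0.13 and was not called on the common scale (adjusted p = 0.0800). As deposited it was lower (-0.46), as were 84.0% of all genes.

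Among the 11 other antiviral effectors and interferon-induced genes, 4 were called higher on the common scale, a share near the 33.3% of all genes. Only 1 was lower (36.1% of all genes). As deposited Xaf1 was called higher (5.56% of all genes), and Mx1, Samd9l and Ifi35 lower (84.0%). Xaf1, a pro-apoptotic gene, ran from 8.25 through 8.42 to 9.998 in NZB/W and was 6.85, 6.86, 6.85 and 7.25 in NZW/BXSB. Even the lowest NZB/W kidney, replicate 4, lay far above the highest NZW/BXSB kidney. Xaf1 was 3.18-fold higher (1.67 ± 0.27, adjusted p = 8.93e-05), 2.72-fold without replicate 5, and was the one gene of the 33 also called higher as deposited (difference 0.98, adjusted p = 0.00245). The Mx genes encode dynamin-like GTPases that trap viral components. Mx2 ran from 6.86 through 6.92 to 7.63 in NZB/W against 6.36, 6.15, 6.39 and 6.48, and was 1.61-fold higher (0.69 ± 0.13, adjusted p = 0.000336). Mx1 ran from 4.89 through 5.03 to 5.85 in NZB/W and was 5.66, 5.53, 5.77 and 5.65 in NZW/BXSB. The 6 other NZB/W kidneys were all below NZW/BXSB and replicate 5 above it. Mx1 was near background in NZB/W, and was at least 1.18-fold lower there (adjusted p = 0.00559).

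Rsad2, whose product viperin makes a chain-terminating nucleotide, and its neighbour Cmpk2, a mitochondrial nucleotide kinase gene, were both separated in every kidney. Rsad2 was 8.80 ± 0.39 against 8.36 ± 0.04 (1.35-fold, adjusted p = 0.0343) and Cmpk2 7.97 ± 0.28 against 7.48 ± 0.16 (a difference of 0.49 ± 0.13, adjusted p = 0.00483). The Rsad2 call was lost on leaving out any 1 NZW/BXSB kidney. As deposited, Rsad2 differed by -0.28 and Cmpk2 by -0.21, neither called. Bst2, which encodes the virion tether tetherin, was 8.96 ± 0.61 against 8.54 ± 0.14 and Samd9l, a translation inhibitor gene, was 10.23 ± 0.20 against 10.23 ± 0.08. Neither was called on the common scale (adjusted p = 0.166 and 0.997). Samd9l was lower as deposited (-0.72), as were 84.0% of all genes.

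Rtp4, Ifi44 and BC023105 had wide ranges in NZB/W without a called strain difference. Rtp4, a chaperone of receptor trafficking, ran from 6.99 through 7.20 to 8.85 in NZB/W and was 7.13, 7.12, 7.09 and 7.33 in NZW/BXSB. Ifi44 ran from 7.36 through 7.71 to 9.18 in NZB/W and was 7.32, 7.65, 7.58 and 7.65 in NZW/BXSB. In both, the 6 other NZB/W kidneys overlapped the NZW/BXSB kidneys and replicate 5 lay above them all. The limma interval of the difference ran from -0.29 to 0.88 for Rtp4 and from -0.28 to 0.86 for Ifi44. BC023105 ran from 4.42 through 4.72 to 8.12 in NZB/W and was 5.02, 4.72, 5.12 and 4.59 in NZW/BXSB. Both strain means were near background, so no fold between the strains is given, although replicate 5 was well above it. Ifi35 was 8.76 ± 0.50 against 8.73 ± 0.06 and was not called on the common scale (adjusted p = 0.907). As deposited it was lower (-0.67), as were 84.0% of all genes.

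**Figure D2:**
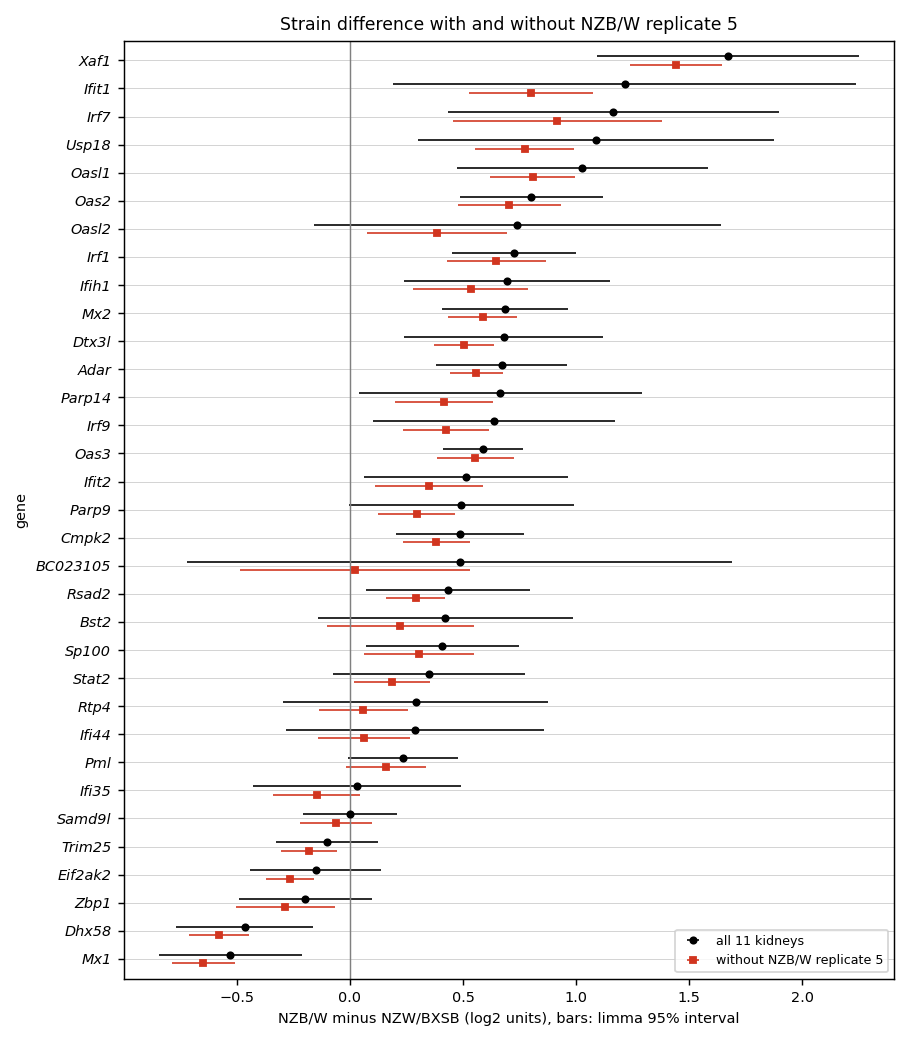
Strain difference of each of the 33 genes on the common scale (x axis, log2 units, NZB/W minus the other strain), for all 11 kidneys and without NZB/W replicate 5; bars are limma 95% intervals. The intervals narrow without replicate 5, and Xaf1 leads in both fits; as deposited the median of the 33 is -0.18 and only Xaf1 is called higher.

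The excess of replicate 5 differed widely between the genes. Over the median of the 6 other NZB/W kidneys it was 7.56-fold for Ifit1 (2.92 log2 units), 5.69-fold for Oasl2 and 4.53-fold for Usp18. It was 3.37-fold for Parp14, 3.19-fold for Rtp4, 3.08-fold for Irf7 and 3.07-fold for Xaf1. In BC023105, Dhx58 and Mx1 the 6 others lay below background, and replicate 5 was at least 6.50-fold, 1.396-fold and 1.34-fold above it. At the low end it was 1.46-fold for Irf1, 1.39-fold for Pml, 1.30-fold for Samd9l and 1.15-fold for Oas3. The central 95% of the tested genes lay between -0.33 and 0.34 log2 units for the same distance, and 32 of the 33 genes lay above it, with those 3 at their bound. These distances come from 1 kidney and have no test. Genes with the response element core in the promoter and genes without it overlapped in this excess, at a median of 1.09 (0.21 to 2.92) for the 7 with and 1.16 (0.38 to 2.51) for the 16 without.

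Replicate 5 was ahead of the next NZB/W kidney by at least 0.5 log2 units in 26 of the 33 genes and in 75 of all tested genes (0.520%), or in 24 and 68 where values below background were raised to it. It was ahead by at least 1 in 13 of the 33 and in 25 of all (0.173%). Ranked by this gap, 7 of the first 10 genes, 12 of the first 20 and 22 of the first 50 were among the 33 (7, 12 and 21 with values raised to background). Others with a large gap were Cxcl10, Irgm1, Igtp, Ifi204, Ly6e, Ifi202b, Iigp1, Parp12 and Gbp3. Cxcl10, the gene of a chemokine for activated T cells, was 9.43 in replicate 5 and at most 7.695 in the 6 others (a gap of 1.74). Irgm1 and Igtp encode immunity-related GTPases, with gaps of 1.69 and 1.59, and Gbp3 a guanylate binding protein, with 1.07. Ifi204 was 5.88 in replicate 5 and below background in the 6 others, so its gap is limited by background. The gap was 1.22 for Ifi202b, 1.25 for Ly6e, 1.17 for Iigp1 and 1.13 for Parp12. The older symbol Trim30, with the Entrez number that RefSeq gives to Trim30a, also led in replicate 5, at 7.97 against 6.73 to 7.23 in the 6 others, and its strain difference was not called (0.24 ± 0.17, adjusted p = 0.232).

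**Figure D3:**
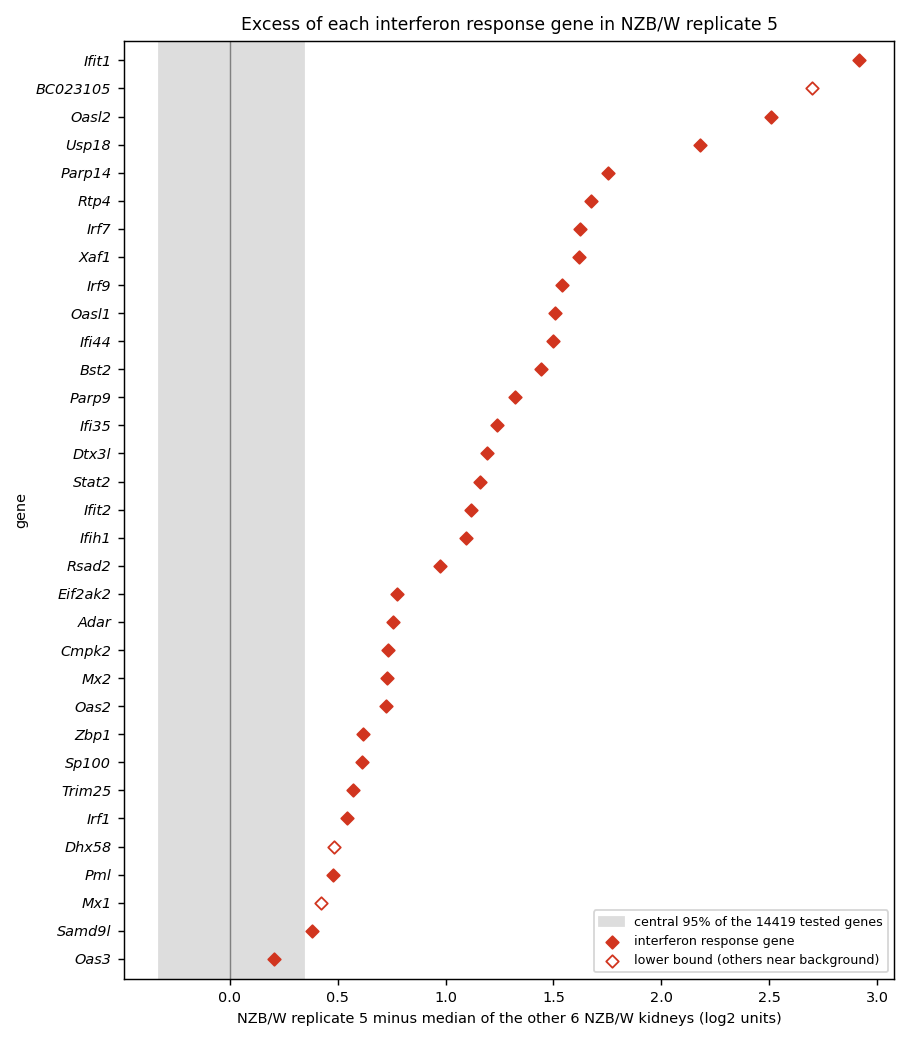
Excess of NZB/W replicate 5 over the median of the 6 other NZB/W kidneys for each of the 33 genes, in log2 units on the common scale; open symbols are lower bounds against the background level, and the grey band holds the central 95% of the 14419 tested genes (-0.33 to 0.34). All but Oas3 lie to the right of the band, from 0.38 for Samd9l to 2.92 for Ifit1.

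The spread of these genes within NZB/W was wide with that kidney and much narrower without it. Their median SD was 0.47 in NZB/W, against 0.12 over all tested genes, and 0.936% of the tested genes had an SD above 0.47. Without replicate 5 the median SD of the 33 was 0.16 (0.12 over all genes), and in NZW/BXSB it was 0.11 (0.08 over all genes). The deposited values gave 0.47 and 0.16 in NZB/W too, since the offset lies between the strains. The median ratio of a gene's SD with and without replicate 5 was 3.16, and the largest was 6.88.

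The 6 other NZB/W kidneys also differed among themselves. Replicate 3 was the highest of the 6 in 12 of the 33 genes (12.6% of all genes), among them Ifit1, Oasl1, Oasl2, Usp18, Xaf1, Parp14 and Rtp4. Replicate 1 was the highest in 10 (23.8% of all genes), among them Irf1, Irf7, Irf9, Stat2, Bst2, Oas2 and Adar. Replicate 6 was the lowest in 15 (45.5%, against 14.7% of all genes), among them Ifit1, Irf7, Usp18, Oasl1, Oasl2 and Bst2. The genes led by replicate 1 included all 4 transcription factor genes, but its count was not far above its share of all genes. Its lead was small in Stat2 (7.05 against 6.99 in replicate 7) and Irf9 (8.36 against 8.31 in replicate 3), and wider in Irf7 (8.99 against 8.66 in replicate 3). This split of genes between replicates 1 and 3 was picked out after the order was seen and was not tested. In NZW/BXSB, replicate 4 was the highest in 19 of 33 (57.6%, against 33.3% of all genes), with its widest leads over the next kidney in Irf7 (0.42), Xaf1 (0.39), Oasl2 (0.35) and Oas2 (0.33). The macrophage and dendritic cell marker mean was lowest in NZB/W in replicate 6 (7.54, against 7.71 to 8.08) and highest in NZW/BXSB in replicate 4 (7.99, against 7.66 to 7.82), and its part in these orders was not tested.

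Upstream and downstream genes of the pathway were taken from lists chosen with earlier results of these data known. Of 23 genes of interferon induction (nucleic acid sensors, adaptors and kinases), 7 were called higher and 12 lower on the common scale, with a median of -0.26, and 0 higher and 23 lower as deposited. For this and the next lists the shares over all tested genes were 33.3% higher and 36.1% lower on the common scale, and 5.56% and 84.0% as deposited. Lower were Tlr9, the receptor for unmethylated DNA (6.51 ± 0.09 against 7.26 ± 0.13, adjusted p = 2.76e-07), Sting1, the adaptor of cytosolic DNA sensing (by 1.56-fold), and the kinase and ligase genes Irak4 and Traf6 (by at least 1.77-fold and by 1.48-fold). Of 20 interferon genes only 3 were tested. Ifna9 was called higher (6.75 ± 0.07 against 5.79 ± 0.08) and Ifnb1 too (5.83 ± 0.07 against 5.47 ± 0.08), while Ifna5 was 5.20 ± 0.15 against 5.21 ± 0.23. As deposited, Ifna9 was called higher and Ifnb1 and Ifna5 lower. Replicate 5 did not lead in any of the 3. Its mean over them, 5.86, was next to the lowest of the other NZB/W kidneys (5.87 to 5.99). Of the 3, 1 was near background, with Ifna5 in NZB/W below the level of 5.42, so this order says little about interferon transcripts.

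Among 12 receptor and proximal signalling genes, 5 were called higher and 2 lower (median 0.09), with 0 higher and 10 lower as deposited. Of the receptor chains, Ifnar1 was 8.59 ± 0.15 against 8.58 ± 0.04 (adjusted p = 0.868) and Ifnar2 8.71 ± 0.08 against 8.54 ± 0.05 (1.12-fold, adjusted p = 0.0115). Ifngr2, a chain of the receptor for type II interferon, was 1.30-fold lower. The kinase gene Tyk2 was 1.31-fold higher and Stat4 1.51-fold. Among 22 negative regulators, 7 were called higher and 8 lower (median -0.03), and as deposited 0 and 22, so that the shares on the common scale were close to those of all genes. The list mean of replicate 5 was the highest of the NZB/W kidneys for the receptor and signalling genes (8.43, against 8.17 to 8.36). The same held for the negative regulators (7.84, against 7.69 to 7.77). However, replicate 5 was the highest NZB/W kidney in only 2 of the 12 genes and 4 of the 22 (12.3% of all genes). Its median excess over the others was 0.10 and 0.04 log2 units, so neither list rose as a whole. The ribonuclease subunit gene Rnaseh2a (by 1.397-fold), the phosphatase gene Ptpn6 (by 1.33-fold) and the deubiquitinase gene Otud5 (by 1.22-fold) were lower, and the corepressor gene Irf2bp1 1.32-fold higher.

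The list of other interferon-stimulated genes followed the 33 in replicate 5. Of 67 tested, 34 were called higher and 12 lower (median 0.27), and 6 higher and 39 lower as deposited. Without replicate 5, 34 were called higher and 21 lower. Replicate 5 was the highest NZB/W kidney in 52 of the 67 and led by at least 0.5 log2 units in 31. The list mean was 8.37 in replicate 5, 7.49 to 7.78 in the 6 others, and 7.46 to 7.53 in NZW/BXSB. Not every gene of the list took part. The chemokine gene Cxcl9 was 1.79-fold higher in NZB/W (7.07 ± 0.11 against 6.22 ± 0.18) with replicate 5 at 7.18, within the others. Ifi44l was near background in NZB/W in every kidney, replicate 5 included (4.56), against 6.47 ± 0.04 in NZW/BXSB. At that level its values cannot show whether it took part. Gsdmd, the pore-forming executor of pyroptosis, was 1.92-fold lower in NZB/W, and Trim12a was near background in both strains.

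Marker lists of other cells gave the following in replicate 5. Its list means lay within the range of the 6 other NZB/W kidneys for B and plasma cells (6.47, against 6.37 to 6.63), T and NK cells (6.07, against 5.98 to 6.18), macrophages and dendritic cells (8.04, against 7.54 to 8.08) and neutrophils (6.37, against 6.23 to 6.44). The same was true of plasmacytoid dendritic cells, the main interferon alpha producers (6.37, against 6.19 to 6.38), kidney cells (11.16, against 11.01 to 11.22) and acute injury genes (7.63, against 7.45 to 8.24). Only 4 plasmacytoid markers were tested, 1 of them near background. Siglech, 1 of the plasmacytoid markers, was 5.56 to 5.71 in NZB/W, little above the background level of 5.42, and 5.58 to 5.76 in NZW/BXSB. Erythroid markers were lowest in replicate 5 among the NZB/W kidneys (6.20, against 6.35 to 6.42). Replicate 5 was the highest NZB/W kidney in 1 of 13 kidney markers, 1 of 19 acute injury genes and 5 of 16 macrophage and dendritic cell markers. It was the highest in 12.3% of all tested genes. Its median excess in these lists was 0.03, 0.06 and 0.08 log2 units. In each list 1 marker led by at least 0.5 log2 units, namely Aqp2, the collecting duct water channel, by 0.79, Saa1 by 0.63 and Mpeg1 by 0.55. NZB/W replicate 2 stood apart for adrenal and fat genes (6.82, against 8.45 to 9.17), and was not the highest or lowest kidney for the mean of the 33.

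**Figure D4:**
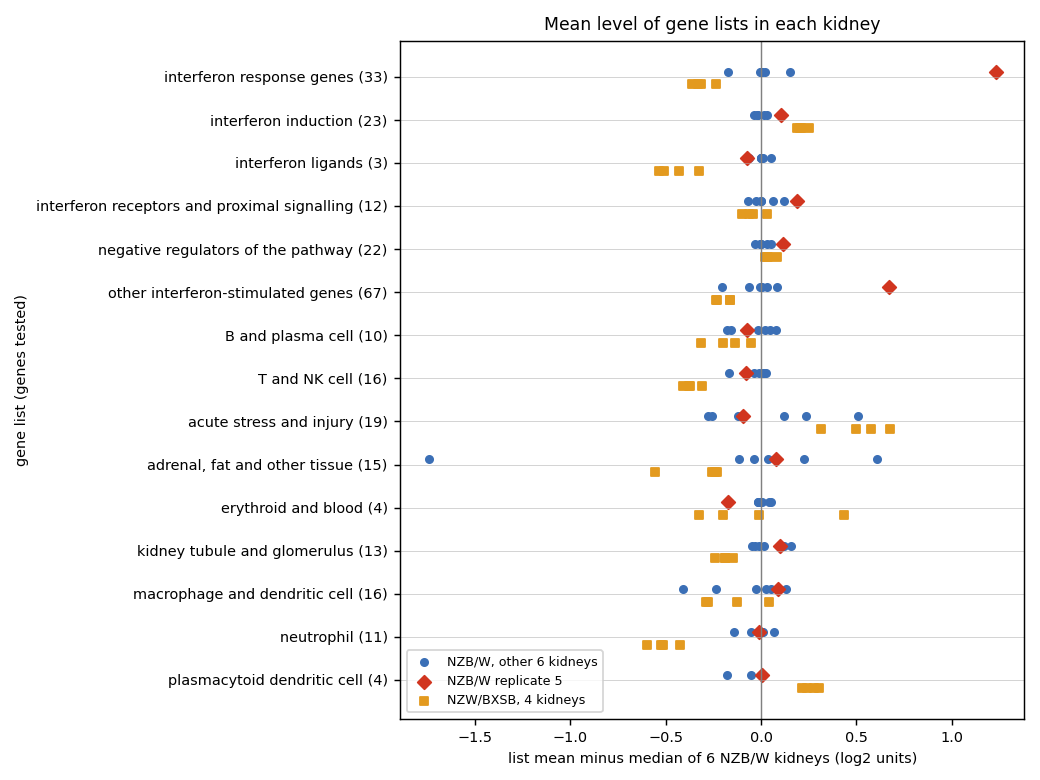
Mean level of each gene list in each kidney, as the distance from the median of the 6 other NZB/W kidneys (log2 units, common scale), with the number of genes tested in brackets. Replicate 5 lies far to the right for the 33 interferon response genes (8.87 in level) and the 67 other interferon-stimulated genes (8.37), and among or near the other NZB/W kidneys for the remaining lists; positions of NZW/BXSB kidneys depend on the scale.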

How the data were processed

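Affymetrix arrays of 11 whole kidneys were analysed. The authors processed them with RMA, named without a version, and deposited log2 expression values grouped by Entrez gene, with a Yes or No call per gene and strain for expression above a baseline set on negative control probes. No source used here gives the genome build behind the arrays. Genes were named by Entrez number through RefSeq (GRCm38.p6), which named 16229 of 16475. Since the deposited strains were offset, log2 values were quantile normalized over all genes with limma 3.58.1 (normalizeBetweenArrays, R 4.3.3). This assumes that the strains share 1 distribution. The test was lmFit and eBayes with Benjamini-Hochberg adjustment, over the genes that 1 or both strains had above baseline. A fold is a lower bound where a strain's mean lies below the 95th percentile of its genes not above baseline (5.42 for NZB/W, 5.03 for NZW/BXSB).

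The 38 genes, the pathway lists and the marker lists were chosen with earlier results of these data known. Named were all of the 33 genes. Kidney values were given for called genes with a difference of at least 0.5 and for the 8 with the widest NZB/W range. For each pathway list the 4 genes with the smallest p were named. For the kidney highest in these genes, the 10 others with the largest gap were to be named, of which 1 is not reported here. Ifnar1, Ifna5 and single markers were named after their values were seen. The labels do not state that each kidney came from a separate mouse, so p-values measure the spread between these kidneys, and their number limits the precision. Deviations of same-numbered kidneys correlated at -0.13 to 0.28, the highest for number 2, and those of other pairs at -0.28 to 0.39. Alternatives were the deposited scale, median centring, other filters, array weights, an intensity trend, the study's fold limits (1.4 and 0.7) with a limma adjusted p of at most 0.001 (the study used SAM q-values), the replicate number as a block and leaving out kidneys. The test was checked on simulated normal values, with the same SD in both strains for a gene and no outlying kidney. That setting differs from these genes in NZB/W, so the check gives no assurance for them. Promoter windows were searched on both strands.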

Additional observations from a re-analysis of the deposited data

Results flagged for a closer look

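A kidney far from the others of its strain was found in 27 cases, each by the gap to its neighbour as a share of the strain's range on the common scale, set against the critical value of Dixon's test. Chance gives this in about 1 in 20 groups, and it occurred in 5.27% of all tested genes in NZB/W and 5.90% in NZW/BXSB. In NZB/W replicate 5 was the high kidney in all 23 genes. The share was 0.747 for Ifit1, 0.573 for Ifit2, 0.757 for Oasl1, 0.727 for Oasl2, 0.745 for Mx1, 0.702 for Mx2 and 0.741 for Usp18. For the signalling genes it was 0.735 for Irf9 and 0.712 for Stat2, and for the sensors 0.768 for Dhx58 and 0.862 for Eif2ak2. It was 0.799 for Xaf1, 0.786 for Rsad2, 0.837 for Cmpk2, 0.777 for Ifi44, 0.646 for Ifi35, 0.740 for Rtp4 and 0.616 for BC023105. It was 0.691 for Trim25, 0.785 for Parp9, 0.704 for Parp14, 0.837 for Dtx3l and 0.809 for Adar. In NZW/BXSB replicate 4 was the high kidney in all 4 genes, at 0.988 for Xaf1, 0.907 for Oasl1, 0.893 for Cmpk2 and 0.851 for Rtp4.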

How the results depend on the processing

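The scale decided most calls. As deposited, 1 of the 33 genes was called higher (5.56% of all genes) and 8 lower (84.0%), with a median of -0.18 in place of 0.49. Without replicate 5 on that scale 1 was higher (5.47% of all genes) and 21 lower (83.8%). With the study's fold limits and a limma adjusted p of at most 0.001, 6 were higher (14.3% of all genes) and 0 lower (13.6%). The other settings gave 12 to 21 genes higher. Lower calls were 5 without replicate 5, 5 with median centring and without it, and 5 with the replicate number as a block, which gave 19 higher. Numbers 5, 6 and 7 occur only in NZB/W, so the block takes those kidneys out of the strain difference. The block fit is therefore also a fit without replicate 5 and not a separate check on it. The labels' other numbers are shared between strains without naming a litter or day, and the correlations of same-numbered deviations were -0.08, 0.28, -0.00 and -0.13. Leaving out 1 kidney at a time gave 12 to 21 higher, 2 to 5 lower, medians of 0.35 to 0.59 and a median SD in NZB/W of 0.16 to 0.51, the lowest without replicate 5. Without NZB/W replicates 6 and 7 together, a choice made after seeing the data as were the settings that joined a scale with leaving out replicate 5, the call of Sp100 was lost.

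As deposited the sign turned for 18 genes: Ifit2 -0.18, Oas3 -0.023, Irf9 -0.069, Stat2 -0.33, Rsad2 -0.28, Ifih1 -0.0060, Ifi44 -0.41, Bst2 -0.29, Parp9 -0.22, Parp14 -0.038, Dtx3l -0.012, Rtp4 -0.39, Cmpk2 -0.21, Samd9l -0.72, Ifi35 -0.67, Adar -0.035, Sp100 -0.26 and Pml -0.46. Samd9l, at 0.00, also turned to -0.030 with median centring, -0.051 with array weights and ran from -0.062 to 0.038 on leaving out single kidneys. Ifi35, at 0.03, was -0.066 with the block and ran from -0.15 (without replicate 5) to 0.10 (without NZB/W replicate 6). The cause of these turns beside the shift of -0.70 was not tested. Mx1, Dhx58 and BC023105 are limited by background.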
